A study of Mus musculus with 16 samples.

Results

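Natural killer (NK) cells of B78 tumors were examined as the cells to which the study's own annotation gives the class name NK cells. They numbered 3381 of 163343 cells, or 3381 of the 9746 cells annotated as T or NK cells, beside 2314 CD4 T cells, 1804 CD8 T cells and 2247 cells called only T cells. The annotation follows expression clusters, and all 3381 NK cells lay in cluster 17 of 39, which held no other class. Tests on this cluster as a share of all cells and on the class are therefore the same.

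The study asked whether tumors whose cancer cells bear truncated mt-Nd5 differ in their immune infiltrate. Single-cell RNA sequencing was carried out on 16 subcutaneous tumors, each a fragment from a male C57/BL6 mouse of 8 to 11 weeks: 3 tumors of mt.11944 60%, 3 of mt.12436 60%, 3 of mt.12436 80% and 7 wild type (WT). All grew from B78 cells, an amelanotic mouse melanoma line derived from B16, and live cells were sorted with no gate for immune cells. The gene mt-Nd5 codes for a core part of complex I of the respiratory chain, and the mutant lines carry a premature stop codon in it in about the percentage of mitochondrial genomes that the group name gives (the heteroplasmy); only the injected cancer cells carry it, and the NK cells are those of the host. Each mutant group comes from an edited line, so lines edited independently are not compared within it.

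Both mutations are a G-to-A change in mt-Nd5, which lies on the plus strand of chrM:11742-13562 in GRCm39 as an uninterrupted coding sequence, without its stop codon. The reference codon at each site is shown because it defines the mutant groups: TGA, which mitochondria read as tryptophan, becomes TAA, a stop. It is in capitals, within chrM:11931-11957 for codon 68 and chrM:12423-12449 for codon 232 of 607, both 5′ to 3′ on the plus strand.
mt.11944: acaacctggcacTGAgtcaccataaat
mt.12436: ggcctccacccaTGActaccatcagca

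NK cells are innate lymphocytes that kill stressed or transformed cells with perforin and granzymes and that secrete interferon-gamma. In contrast to T cells they carry no rearranged antigen receptor, and a lack of major histocompatibility class I on a target, which releases them from inhibition, favors killing. B16-derived melanomas are known for low class I, and NK cells are a well-known part of the host response to them. Mouse NK cells are recognized by Ncr1 (the activating receptor NKp46), Klrb1c (NK1.1) and Gzma (granzyme A). The table of cells analyzed here gives no value for any gene, so the class could not be set against these markers and is named after the annotation alone.

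The table gives for each tumor a batch, with the groups split unevenly between the batches. Batch 1 held the 3 mt.11944 60% tumors with WT tumors 1, 2 and 3, batch 2 held the 3 mt.12436 60% tumors with WT tumors 4, 5 and 7, and batch 3 held the 3 mt.12436 80% tumors with WT tumor 6. What makes a batch is not stated in the sources used here. The 2 heteroplasmy levels shared no batch, and mt.12436 60% shared none with mt.11944 60%, so in those comparisons the groups and the batches cannot be told apart. The tumors held 6371 to 13448 cells and 66 to 444 NK cells, with a median of 2245 UMIs and 1260 genes per NK cell, against 4557 UMIs and 1965 genes over all cells. The highest median depth among NK cells was in mt.11944 60% tumor 1 (1987 genes) and the lowest in WT tumor 3 (706 genes). Of the 3381 NK cells, 124 (3.67%) carried a cell barcode also present in another library, against 4.04% of all cells, and no barcode belonged to NK cells of more than 1 library.

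NK cells were the most numerous of the 4 T and NK classes in 13 of 16 tumors and the second in the other 3. Their share of T and NK cells varied little between tumors, with a coefficient of variation of 17.5%, whereas their share of all cells varied with a coefficient of variation of 62.6% and was 6.62 times as high in the highest tumor as in the lowest. As a share of T and NK cells, NK cells made up 33.9%, 34.3% and 31.9% in the mt.11944 60% tumors. The mt.12436 60% tumors held 37.9%, 36.3% and 36.3%, and the mt.12436 80% tumors 31.9%, 31.5% and 25.7%. In WT tumors 1 to 7 the shares were 33.7%, 53.9%, 36.5%, 31.2%, 30.4%, 31.4% and 38.9%. WT tumor 2 stood apart, with 89 NK cells of 165 T and NK cells (exact 95% Clopper-Pearson interval 46.0% to 61.7%), and the other 15 tumors lay between 25.7% and 38.9%. Such intervals cover counting error only.

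**Figure D1:**
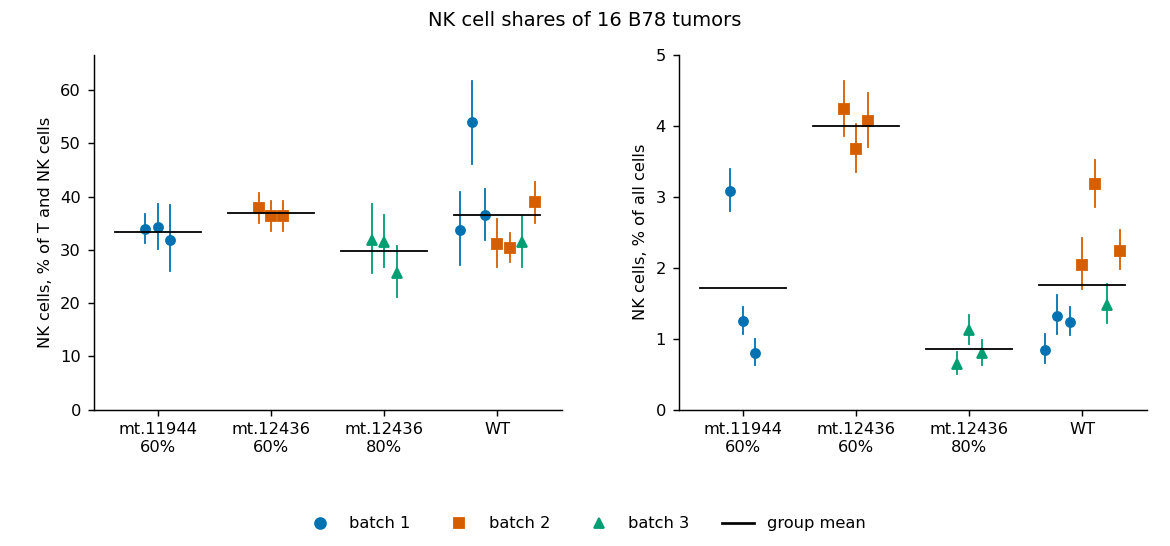
NK cells as a percentage of T and NK cells (left) and of all cells (right) in each of 16 tumors. Points are tumors, marked by batch, vertical lines are exact 95% Clopper-Pearson intervals, which cover counting error only, and horizontal lines are group means; the mt.12436 60% tumors sit together at 3.68% to 4.24% of all cells, while the 3 mt.12436 80% tumors sit at 0.64% to 1.12%.

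Pooled over the mutations and levels, the mutant tumors did not differ detectably from WT in either share. NK cells averaged 33.3% ± 3.63 of T and NK cells in mutant tumors (SD, n = 9) and 36.6% ± 8.26 in WT tumors (SD, n = 7), a difference of -3.26 percentage points with a 95% interval of -9.88 to 2.48. The exact two-sided permutation test gave p = 0.352, or 0.362 adjusted by Benjamini-Hochberg over the 4 classes, of which none passed (0%). Permuted within batches the difference was -2.20 points (exact p = 0.629), without WT tumor 2 it was -0.37 points, and over cells with at least 1000 genes it was -5.38 points (adjusted p = 0.462, exact permutation test). NK cells averaged 2.19% ± 1.55 of all cells in mutant tumors (SD, n = 9) and 1.76% ± 0.789 in WT tumors (SD, n = 7), a difference of 0.42 points with an interval of -0.98 to 1.83 (exact permutation p = 0.515, adjusted p = 0.714 over 15 classes). Tested as cluster 17 among the 39 clusters, of which 5.13% passed, its adjusted p was 0.771 by the exact permutation test. The within-batch difference was 0.71 points (exact permutation p = 0.0981, adjusted p = 0.294).

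At 60% heteroplasmy the share of all cells was higher on average than in WT tumors, but not beyond the spread between tumors. NK cells were 3.09%, 1.25% and 0.80% of all cells in the mt.11944 60% tumors, and 4.24%, 3.68% and 4.08% in the mt.12436 60% tumors. In WT tumors 1 to 7 they were 0.84%, 1.32%, 1.24%, 2.04%, 3.18%, 1.48% and 2.24%. The 3 mt.12436 60% tumors exceeded every WT tumor, including the 3 WT tumors of their own batch. By contrast, mt.11944 60% tumors 1 and 2 lay within the WT range and tumor 3 just below it. Against the 3 WT tumors of their own batch, mt.11944 60% tumor 1 lay above, tumor 2 among and tumor 3 below them. The mean was 2.86% ± 1.48 at 60% (SD, n = 6) and 1.76% ± 0.789 in WT (SD, n = 7), a difference of 1.09 points with an interval of -0.34 to 2.48 (exact permutation p = 0.120, adjusted p = 0.386). Within batches the difference was 1.04 points (exact permutation p = 0.05, adjusted p = 0.125). As a share of T and NK cells, the difference between 60% tumors (35.1% ± 2.14, n = 6) and WT tumors (36.6% ± 8.26, n = 7) was -1.47 points, with an exact permutation p of 0.843. It turned to 1.43 points without WT tumor 2 and to 1.62 points as a difference of medians.

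At 80% heteroplasmy NK cells made up the smallest average share in both denominators, but neither difference from WT passed the threshold. They were 0.64%, 1.12% and 0.79% of all cells in the mt.12436 80% tumors, with a mean of 0.851% ± 0.245 (SD, n = 3), against 1.76% ± 0.789 in WT tumors (SD, n = 7). The difference was -0.91 points with an interval of -2.06 to 0.23 (exact permutation p = 0.0833, adjusted p = 0.208), and 2 of the 3 tumors lay below all WT tumors. Their T and NK cells were 29.7% ± 3.49 NK cells in mt.12436 80% tumors (SD, n = 3) and 36.6% ± 8.26 in WT tumors (SD, n = 7), a difference of -6.86 points with an interval of -18.7 to 4.41 (exact permutation p = 0.242, adjusted p = 0.322), and 1 of the 4 classes (25%) passed, CD8 T cells. Against WT tumor 6 alone, the WT tumor of their batch, the difference in this share was -1.66 points, and without WT tumor 2 that from the other 6 was -3.96 points. Over cells with at least 1000 genes it was -14.9 points (adjusted p = 0.167, exact permutation test). The comparisons of mutant, 60% and 80% tumors with WT share the 7 WT tumors.

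The share of T and NK cells was lower in mt.12436 80% tumors than in the 60% tumors of both mutations. It averaged 29.7% ± 3.49 at 80% (SD, n = 3) and 35.1% ± 2.14 at 60% (SD, n = 6), a difference of -5.39 points with an interval of -10.6 to -1.19 (exact permutation p = 0.0238, adjusted p = 0.0317). In this comparison 3 of 4 classes passed (75%), and the 4 shares sum to the whole. CD8 T cells took 32.7% ± 3.77 of T and NK cells at 80% (SD, n = 3) and 17.7% ± 5.73 at 60% (SD, n = 6). Counted without CD8 T cells in the denominator, a choice made after seeing the data, the NK difference turned to 1.41 points (exact permutation test, adjusted p = 0.452). The call held without mt.11944 60% tumor 3 (-6.03 points, adjusted p = 0.0357, exact permutation test) or without mt.12436 60% tumor 1 (-4.84 points, adjusted p = 0.0476, exact permutation test). It was lost without any other single tumor of the 9, with adjusted p of 0.0714 to 0.190 by the same exact test and differences of -6.50 to -3.38 points, the last without mt.12436 80% tumor 3. Over cells with at least 1000 genes the difference was -14.3 points (adjusted p = 0.0238, exact permutation test), at a floor that 34.4% ± 15.5 of NK cells passed at 80% (SD, n = 3) and 75.2% ± 16.3 at 60% (SD, n = 6). In share of all cells the difference between 80% (0.851% ± 0.245, n = 3) and 60% (2.86% ± 1.48, n = 6) was -2.004 points (exact permutation p = 0.0714, adjusted p = 0.286).

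The 2 mutations at 60% differed in order but could not differ past the threshold, since 3 against 3 tumors cannot give an exact p below 0.1. NK cells were 36.8% ± 0.883 of T and NK cells in mt.12436 60% and 33.4% ± 1.29 in mt.11944 60%, and 4.00% ± 0.289 of all cells in mt.12436 60% and 1.71% ± 1.21 in mt.11944 60% (SD, n = 3 each). All 3 mt.12436 60% tumors lay above all 3 mt.11944 60% tumors in both shares (exact permutation p = 0.1 each). The difference in share of T and NK cells was 3.46 points, but 0.66 points over cells with at least 1000 genes and -0.14 points without CD8 T cells in the denominator. Each set against the WT tumors of its own batch, mt.12436 60% differed by 3.34 points of T and NK cells and mt.11944 60% by -8.01 points. The difference of these differences, 11.4 points, gave an exact permutation p of 0.0900 (adjusted p = 0.310 over 4 quantities). Without WT tumor 2, left out after seeing the data, the mt.11944 60% tumors differed by -1.74 points, and the difference of differences was 5.08 points (exact permutation p = 0.155, adjusted p = 0.520). In share of all cells the WT tumors of batch 2 held 2.04% to 3.18% NK cells, and the other WT tumors 0.84% to 1.48%. Against WT tumors of the same batch, mt.12436 60% differed by 1.51 points of all cells and mt.11944 60% by 0.58 points. The difference of these, 0.93 points, gave p = 0.365 by the exact permutation test, also once adjusted.

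Since a share of all cells moves with every other class, NK cells were also counted per cell of each of the 11 other classes of which each tumor had 5 cells or more. This set of ratios was chosen after seeing the data. NK cells were more numerous relative to B cells, the lymphocytes that make antibodies, at 60% than in WT. Per B cell there were 11.1, 11.2 and 6.73 NK cells in the mt.11944 60% tumors and 7.66, 9.87 and 8.21 in the mt.12436 60% tumors. In WT tumors 1 to 7 there were 6.60, 5.93, 4.23, 3.17, 5.07, 4.50 and 3.21. All 6 tumors at 60% lay above all 7 WT tumors, and in each of batches 1 and 2 the 60% tumors lay above the WT tumors. The geometric mean of the ratio was 1.98-fold that of WT (0.99 on the log2 scale, interval 0.54 to 1.44), and the exact permutation test gave p = 0.00117, or 0.0128 adjusted over the 11 ratios. Of those 11 ratios 2 passed, or 18.2%. The adjustment covered the ratios of this comparison alone, not those of the other comparisons. With all mutant tumors pooled against WT, the log2 difference for B cells was 0.87 and missed the threshold (adjusted p = 0.0788, exact permutation test).

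B cells were few, 5 to 78 in a tumor. They were 0.322% ± 0.187 of all cells at 60% (SD, n = 6) and 0.420% ± 0.231 in WT (SD, n = 7). The call on the NK to B cell ratio held with each of the 13 tumors left out in turn (adjusted p of 0.0238 to 0.0278, exact permutation test). Within batches the log2 difference was 0.99, but the p of 0.005 is the smallest that 400 splits allow, and the exact permutation test gave 0.055 once adjusted. Counted over cells with at least 1000 genes alone, with 0.5 added to each count, the log2 difference was 0.54 (adjusted p = 0.514, exact permutation test). At that floor mt.11944 60% tumor 1 kept 96.5% of its NK cells and WT tumor 3 kept 10.8%, and the part of depth in the result was not tested. At 80% the ratios were 4.00, 5.27 and 16.8 in the mt.12436 80% tumors, the last in a tumor with 5 B cells, and these overlapped the WT range.

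The other ratio past the threshold at 60% was that to neutrophils, short-lived phagocytes of the blood. There were 1.27, 0.92 and 0.31 NK cells per neutrophil in the mt.11944 60% tumors and 1.23, 0.80 and 0.57 in the mt.12436 60% tumors. In WT tumors 1 to 7 there were 0.099, 0.20, 0.78, 0.36, 0.22, 0.14 and 0.17. Of the 6 tumors at 60%, 4 lay above every WT tumor, and WT tumor 3 overlapped them. The geometric mean of the ratio was 3.40-fold that of WT (1.77 on the log2 scale, interval 0.66 to 2.83, exact permutation p = 0.00699, adjusted p = 0.0385). Neutrophils were 3.59% ± 2.05 of all cells at 60% (SD, n = 6) and 8.62% ± 4.48 in WT (SD, n = 7). The call held without mt.11944 60% tumor 3, WT tumor 3 or WT tumor 4, and was lost without any other single tumor of the 13 (adjusted p of 0.0694 to 0.0972, exact permutation test), with log2 differences of 1.57 to 2.06 in all 13 cases. Within batches it was 1.66 on the log2 scale, with an adjusted p of 0.110 (exact permutation test). Over cells with at least 1000 genes, with 0.5 added to each count, it was 0.93 (adjusted p = 0.514, exact permutation test). With all mutant tumors pooled against WT, the log2 difference was 1.42 and missed the threshold (adjusted p = 0.122, exact permutation test).

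**Figure D2:**
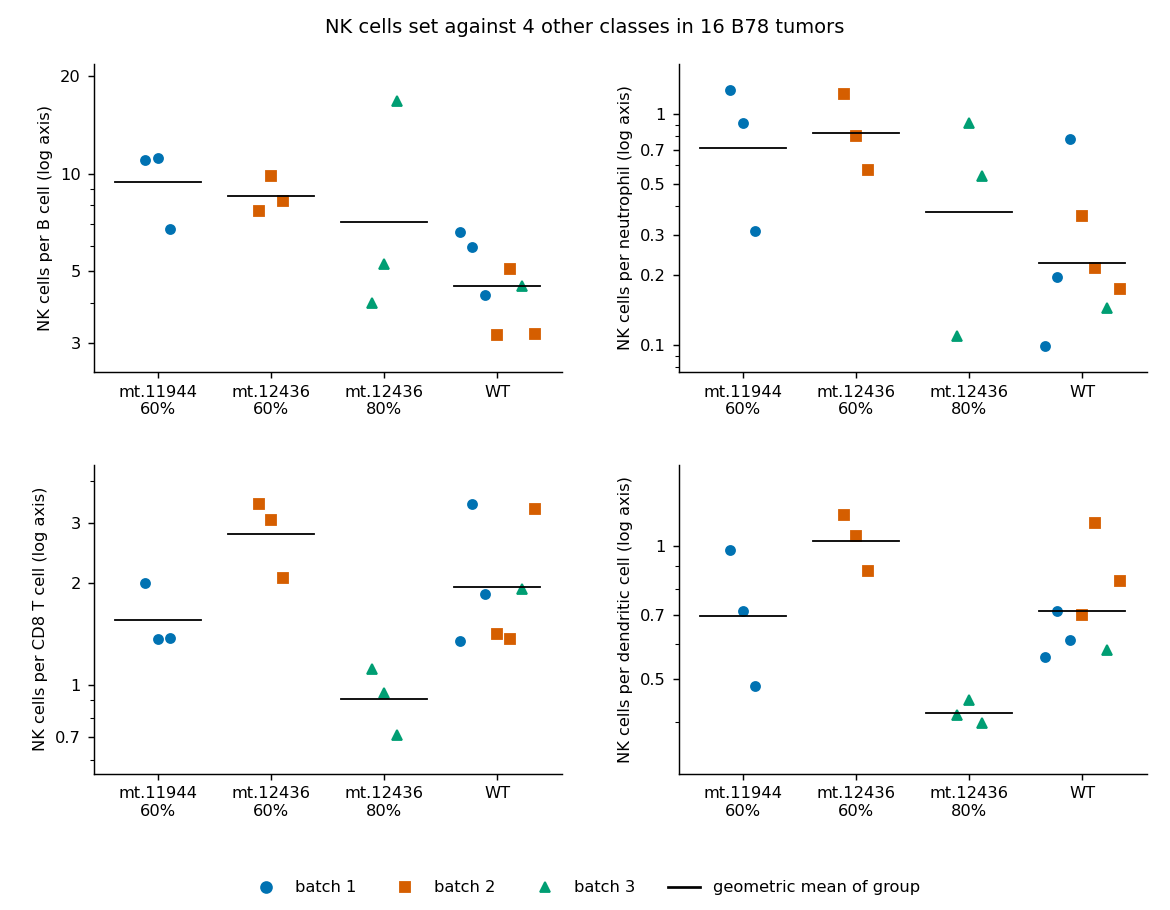
NK cells per B cell, neutrophil, CD8 T cell and dendritic cell in each of 16 tumors, on log axes. Points are tumors, marked by batch, and lines are geometric means of groups; at 60% all 6 tumors sit above all 7 WT tumors for B cells, and the 3 mt.12436 80% tumors sit below every other tumor for CD8 T cells and dendritic cells.

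The balance with CD8 T cells, the cytotoxic T cells that recognize peptide on class I, was lower at 80%. There were 1.11, 0.94 and 0.71 NK cells per CD8 T cell in the mt.12436 80% tumors. The tumors at 60% had 1.37 to 3.42, and the WT tumors 1.35 to 3.42. All 3 tumors at 80% lay below every other tumor, and tumors 2 and 3 at 80% were the only ones of the 16 with fewer NK than CD8 T cells. The log2 difference was -1.10 between 80% and WT (interval -1.98 to -0.24, exact permutation p = 0.0250, adjusted p = 0.0917 over 11 ratios) and -1.20 between 80% and 60% (exact permutation p = 0.0357, adjusted p = 0.131). Both missed the threshold once adjusted (0%), and 3 of 11 ratios (27.3%) had an unadjusted p under 0.05 in each comparison. Against WT tumor 6, in the same batch, it was -1.08, and against all WT tumors over cells with at least 1000 genes -1.79 (adjusted p = 0.0917, exact permutation test). CD8 T cells were 0.959% ± 0.335 of all cells at 80% (SD, n = 3) and 0.986% ± 0.676 in WT (SD, n = 7).

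The same order held for 2 classes of antigen-presenting or monocytic cells. Per dendritic cell, the cell that primes T cells and activates NK cells, there were 0.41, 0.45 and 0.40 NK cells in the mt.12436 80% tumors, with 0.48 to 1.18 at 60% and 0.56 to 1.13 in WT. The log2 difference from WT was -0.77 (interval -1.31 to -0.31), and the exact permutation test gave p = 0.00833, the smallest that 120 splits allow, or 0.0917 adjusted. Per monocyte there were 0.029, 0.045 and 0.034 NK cells at 80%, against 0.050 to 0.12 in WT, a log2 difference of -1.03 (exact permutation p = 0.0167, adjusted p = 0.0917). Within batch 3 the log2 differences from WT tumor 6 were -0.47 for dendritic cells and -0.67 for monocytes. Over cells with at least 1000 genes that from all WT tumors was -1.42 for dendritic cells (adjusted p = 0.122, exact permutation test). The ratio of NK to CD4 T cells, the helper T cells, was 1.17 to 1.55 at 80%, 1.22 to 1.73 at 60% and 0.886 to 2.41 in WT, and the groups overlapped.

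From tumor to tumor the share of NK cells among all cells moved with those of T cells and dendritic cells. Over 16 tumors and 14 other classes, with permutation tests and Benjamini-Hochberg adjustment, Pearson's r was 0.96 with the class called T cells (Spearman's rho 0.88), 0.95 with CD4 T cells (rho 0.91) and 0.92 with dendritic cells (rho 0.90). For these 3 the Pearson p was 1e-05, the smallest that the permutations can give, with an adjusted p of 4.67e-05, and Spearman's adjusted p was 0.000105. With monocytes r was 0.75 (rho 0.73, adjusted permutation p 0.00252 and 0.00555), and with CD8 T cells 0.69 (rho 0.70, adjusted permutation p 0.00623 and 0.0060). With cancer cells r was -0.83 (rho -0.87, adjusted permutation p 0.00028 and 0.000105). In all, 7 of the 14 classes passed, the seventh being B cells (r = 0.69, rho 0.78, adjusted permutation p 0.00836 and 0.00146). Shares of a whole are not free of each other. A rise of one lowers the sum of the rest, and a change in a large class such as cancer cells can move smaller classes together.

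Within batches, as values centered on each batch, 5 of the 7 relations held. The coefficients were 0.90 for CD4 T cells (rho 0.93), 0.89 for T cells (rho 0.87), 0.85 for dendritic cells (rho 0.83), 0.80 for monocytes (rho 0.84) and -0.69 for cancer cells (rho -0.80), each with an adjusted permutation p of 0.00574 or less. That of CD8 T cells was 0.50 (rho 0.36, adjusted permutation p 0.190 and 0.433) and that of B cells -0.05 (rho 0.02, adjusted permutation p 0.867 and 0.938). The relations with CD8 T cells and B cells thus did not hold within batches. Without mt.12436 60% tumors 1 and 3, the 2 tumors farthest from the median NK share, r was 0.96 with T cells, 0.93 with CD4 T cells and 0.90 with dendritic cells. Taken as shares of immune cells, r was 0.95 with T cells, 0.92 with CD4 T cells, 0.78 with dendritic cells and -0.82 with macrophages (adjusted permutation p of 0.000975 or less) and 0.57 with B cells (adjusted permutation p 0.0435), while with CD8 T cells it was 0.51 (rho 0.48, adjusted permutation p 0.0743 and 0.103) and with monocytes 0.28 (rho 0.32, adjusted permutation p 0.362 and 0.276), both of which missed the threshold. Centered on each batch, these shares gave r = 0.64 with monocytes, which then passed (rho 0.74, adjusted permutation p 0.0305 and 0.0151). With B cells r was then -0.13 (rho -0.19, adjusted permutation p 0.728 and 0.652), past no threshold. By Pearson's r the calls for the other classes named here were the same.

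**Figure D3:**
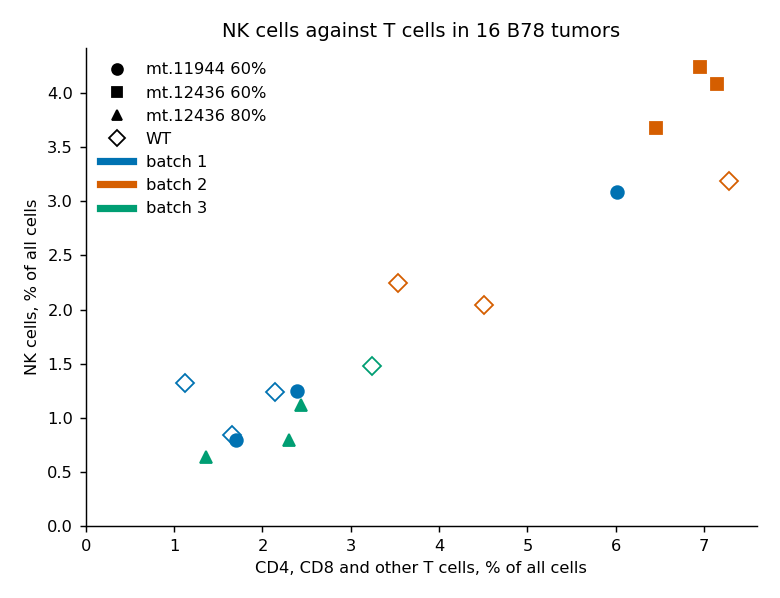
NK cells against T cells of all 3 annotated T classes, each as a percentage of all cells, with a point for each of 16 tumors. Shapes are groups and colors are batches. The 3 mt.12436 60% tumors and WT tumor 5 lie at the upper right, with 6.45% to 7.29% T cells. The 3 mt.12436 80% tumors lie at the lower left, with 1.36% to 2.43%. WT tumors 1 to 3 and mt.11944 60% tumors 2 and 3 lie there too, with 1.13% to 2.39%.

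Per cell, NK cells ranked between CD8 and CD4 T cells in RNA content in every tumor. This describes classes that were drawn from expression, and no test was made. The median of UMIs per NK cell lay below that of CD8 T cells and above that of CD4 T cells in 16 of 16 tumors, as did the median of genes. Over all cells the medians were 1260 genes in NK cells, 1546.5 in CD8 T cells, 1317 in T cells and 1000 in CD4 T cells. Ribosomal genes took a median of 19.8% of UMIs in NK cells, 19.4% in CD8 T cells, 22.4% in T cells and 14.5% in CD4 T cells, and the NK median exceeded that of CD4 T cells in 16 of 16 tumors. Mitochondrial genes took 0.865% in NK cells, 0.787% in CD8 T cells and 1.00% in T cells, and NK cells lay below the class called T cells in 15 of 16 tumors.

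None of the 9 per-cell measures of NK cells differed between mutant and WT tumors after adjustment (0%), by the exact permutation test on medians per tumor, and none had an unadjusted p under 0.05, against 1.85% of the 108 measures of 12 classes. NK cells had a median of 1187 ± 374.6 genes in mutant tumors (SD, n = 9) and 1248 ± 288.0 in WT tumors (SD, n = 7). The epithelial score was at a median of 0 in all 16 tumors, so this 1 of the 9 measures could not have differed. In mt.12436 80% tumors the mitochondrial percentage of NK cells was lower, at 0.636%, 0.542% and 0.702%. At 60% it was 0.815% to 0.995%, and in WT tumors 1 to 7 it was 1.17%, 0.905%, 0.710%, 0.971%, 0.887%, 0.774% and 0.840%, all above the 3 tumors at 80%. The difference between 80% and WT was -0.27 points (exact permutation p = 0.0250, or 0.245 adjusted over 108 measures of 12 classes), against WT tumor 6 of the same batch -0.15 points, and between 80% and 60% -0.29 points (exact permutation p = 0.0119, adjusted p = 0.129). In each of these comparisons 12% of the 108 measures had an unadjusted p under 0.05. The same NK cells had fewer genes, with medians of 1045, 830 and 741, and a mean of 872 ± 156.3 at 80% (SD, n = 3), against 1248 ± 288.0 in WT (SD, n = 7) (exact permutation p = 0.0833, adjusted p = 0.427). The part of depth in the mitochondrial percentage was not tested.

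The ribosomal percentage of NK cells went with the batch. In the 6 tumors of batch 2 its medians were 16.3% to 19.98%, all below those of the other 10 tumors, 21.4% to 24.2%. CD8 T cells showed the same order (16.4% to 18.7% in batch 2 and 19.7% to 24.0% elsewhere), while CD4 T cells overlapped, with 4 of the 6 batch 2 tumors below all others (10.9% to 14.7% in batch 2 and 14.03% to 18.5% elsewhere), and the class called T cells overlapped with none below all others (20.6% to 24.3% in batch 2 and 20.6% to 27.9% elsewhere).

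**Figure D4:**
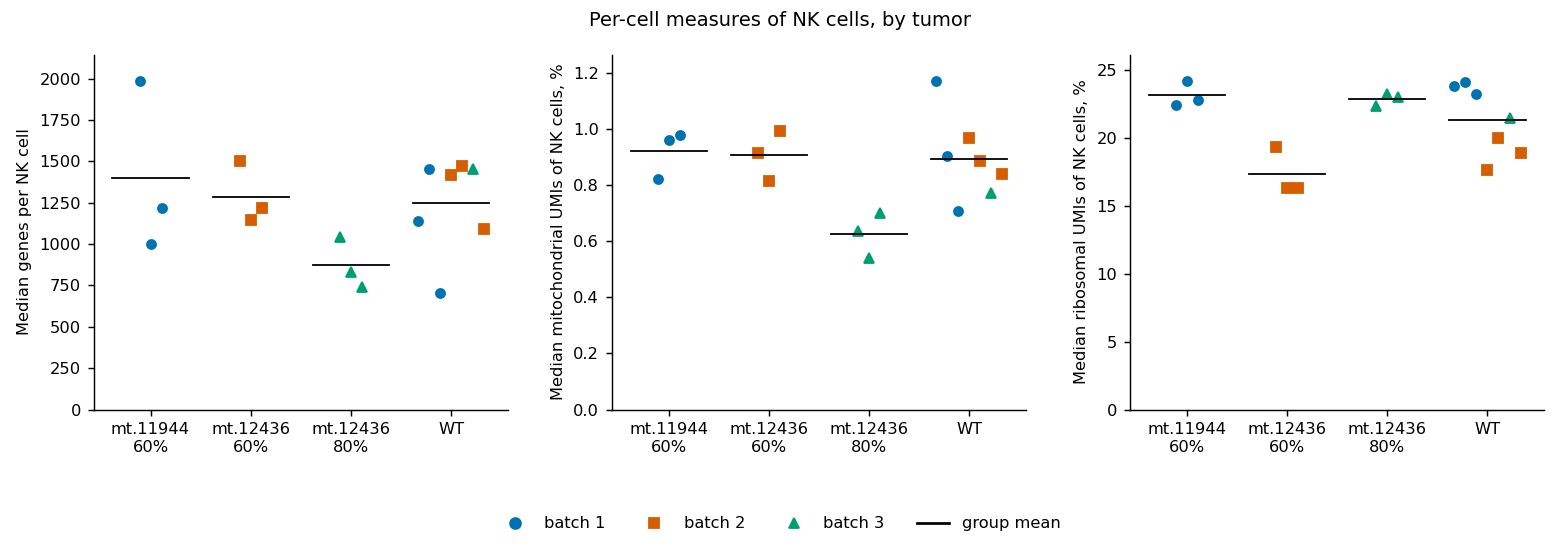
Median genes per NK cell, median mitochondrial percentage of UMIs and median ribosomal percentage of UMIs in each of 16 tumors. Points are tumors, marked by batch, and lines are group means; the 3 mt.12436 80% tumors have the lowest mitochondrial percentages, with WT tumor 3 just above them, and the 6 batch 2 tumors have the lowest ribosomal percentages.

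By the phase that the study assigned to each cell, 42.6% of NK cells were in G1, 35.2% in S and 22.2% in G2M. CD8 T cells had 24.8% in G1, 38.2% in S and 37.0% in G2M. In all 163343 cells, G1 was the phase of each cell with both the S and the G2M score at or below 0, with no exception, so the phase turns on small differences around 0. Of NK cells 26.4% lay within 0.02 of that boundary. A score above 0.2 was reached by 125 NK cells (3.70%), against 36.4% of CD8 T cells and 2.64% of CD4 T cells, and in 16 of 16 tumors the NK share was below that of CD8 T cells. CD8 T cells also had more UMIs, and the gene counts needed to bring the classes to 1 depth were not analyzed here. The CD8 T cell class joined 2 expression clusters, 24 and 33, while NK cells, CD4 T cells and T cells were 1 cluster each. How the high scores divided between the CD8 clusters, and the part of the clustering in this gap, was not tested.

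NK cells assigned to S or G2M made up 57.0%, 53.6% and 37.8% in the mt.11944 60% tumors, 72.7%, 71.2% and 49.2% in the mt.12436 60% tumors and 51.5%, 46.6% and 54.8% in the mt.12436 80% tumors. In WT tumors 1 to 7 they made up 51.5%, 59.6%, 44.6%, 56.2%, 56.9%, 51.3% and 49.6%. Only mt.12436 60% tumors 1 and 2 exceeded the WT range, and only mt.11944 60% tumor 3 fell below it. This was not particular to NK cells. Those mt.12436 60% tumors also exceeded the WT range in CD4 T cells (76.3% and 71.1%, highest WT 70.3%). They did so in the class called T cells too (74.0% and 68.5%, highest WT 61.5%), but not in CD8 T cells (86.9% and 84.1%, highest WT 88.5%). In mt.11944 60% tumor 3, CD4 T cells (34.0%) also fell below the lowest WT tumor (42.4%), while CD8 T cells and T cells did not. The mean was 54.9% ± 11.2 in mutant tumors (SD, n = 9) and 52.8% ± 5.08 in WT tumors (SD, n = 7), a difference of 2.13 points with an interval of -7.64 to 11.95 (exact permutation p = 0.650, adjusted p = 0.888 over 12 classes). By scores above 0.2 it was -2.64 points (adjusted p = 0.490, exact permutation test). Among NK cells with 2000 to 8000 UMIs the shares were 72.6%, 68.9% and 47.5% in the mt.12436 60% tumors and 41.7% to 60.0% in WT tumors, of which WT tumor 3 had 10 such cells. In mt.12436 60% tumors 1 and 2, scores above 0.2 were reached by 3.60% and 2.03% of NK cells, and in WT tumors by 2.29% to 13.5%, the highest in WT tumor 2. Phase calls alone do not show how many NK cells were dividing.

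**Figure D5:**
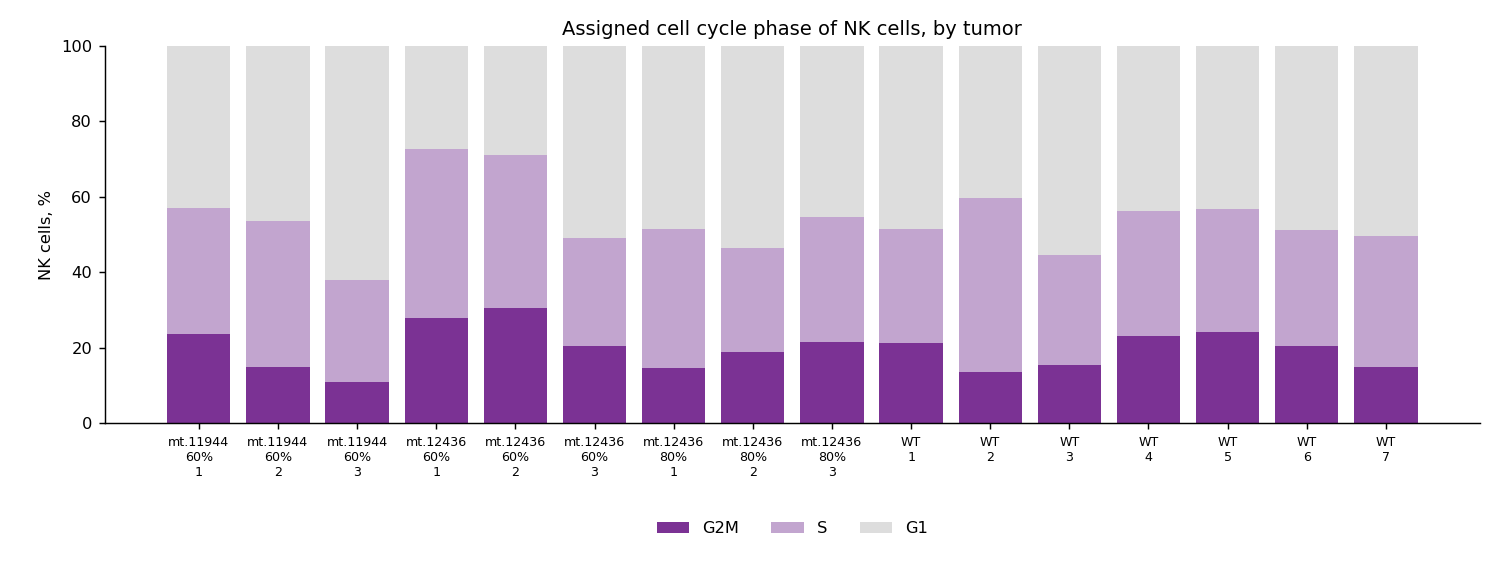
Percentage of NK cells assigned to G2M, S and G1 in each of 16 tumors, as stacked bars that fill the whole. Within mt.12436 60%, tumors 1 and 2 have the most cells in S and G2M (72.7% and 71.2%), and tumor 3 has 49.2%.

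Cells at the edges of the class were few. No cell in the table was called a doublet, and 57 NK cells (1.69%) had a doublet score above 0.1, against 2.61% of CD8 T cells, 4.24% of CD4 T cells and 5.03% of T cells. The study's ploidy call named 5 NK cells (0.148%) aneuploid; T and NK cells had served as the diploid reference of that call, so it is not an independent check. An epithelial score above 0 was found in 13.5% of NK cells and 43.8% of all cells, with the highest NK share in mt.11944 60% tumor 1 (29.4%), the tumor with the deepest NK cells. There were 147 NK cells (4.35%) under 600 genes, close to the authors' floor of 500 genes. WT tumor 3 held 32 of them (21.6% of its NK cells) and mt.12436 80% tumor 3 held 23 (27.4%). The mean share was 15.1% ± 11.1 in mt.12436 80% tumors (SD, n = 3) and 6.04% ± 7.02 in WT tumors (SD, n = 7). In mt.11944 60% tumors it was 2.57% ± 2.26, and in mt.12436 60% tumors 2.64% ± 0.637 (SD, n = 3 each).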

How the data were processed

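Single-cell libraries (10x 3′ kit v3.1) of 16 tumors were aligned and counted by the authors with Cell Ranger 7.0.1 and analyzed with Seurat 4.2.0, Harmony 0.1.0, clustifyr 1.8.0 and CopyKAT 1.1.0, as the submitters' processing notes and the study's methods name them. The deposited table has a line for each cell that passed the authors' limits of more than 500 genes, fewer than 37000 UMIs and less than 5% mitochondrial UMIs, which were tested on the table and held. UMI counts and gene counts per cell are raw values, as the authors deposited them. The percentages of mitochondrial, ribosomal and dissociation-related UMIs and the S, G2M, epithelial and doublet scores were also computed by the authors, the scores on scales not given in the sources used here. Groups came from the labels and batches from the table.

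NK cells and the comparisons and lists were chosen with earlier results of these data known. Every cluster with at least 20 NK cells and every per-cell column was to be described. Tumors were the replicates, and nothing states that each came from a separate mouse. A p value gives how often relabeled tumors differed by at least as much, so it refers to these tumors and not to mice. Group means were compared by exact two-sided permutation tests, within batches as an alternative, with Benjamini-Hochberg adjustment over the 4 T and NK classes, 15 classes, 39 clusters, 11 ratios or all measures of the 12 classes of which each tumor had 5 cells or more, and a threshold of 0.05. Intervals at 95% were found by inverting the test. Correlations used 100000 permutations. Alternatives were other scales, denominators and cell filters, left-out tumors, a replicate block and, for cell counts of the 15 classes, edgeR's quasi-likelihood test. The permutation code was tested on simulated data. Tools were Python 3.11.15, numpy 2.4.6, scipy 1.17.1, pandas 2.3.3, and R 4.3.3 with edgeR 4.0.16.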

Additional observations from a re-analysis of the deposited data

Results flagged for a closer look

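In 33 sets of values, each of 1 measure in a group of 6, 7 or 9 tumors, the highest and the lowest tumor were set against the rest by Dixon's 95% criterion, which flags about 1 in 20 sets by chance, and 4 tumors stood apart. WT tumor 2 had the highest share of NK cells among T and NK cells of the 7 WT tumors, 53.9%, with 89 NK cells, 26 CD8 T cells and 37 CD4 T cells. WT tumor 3 had the highest number of NK cells per neutrophil of the 7 WT tumors, 0.783, and also the shallowest NK cells. Of the 6 tumors at 60%, mt.11944 60% tumor 3 had the lowest median percentage of dissociation-related UMIs in NK cells, 2.40%. Among the 9 mutant tumors, mt.11944 60% tumor 1 had the highest median of UMIs per NK cell, 4375.5.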

How the results depend on the processing

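Alternatives were other scales, denominators, filters, batches and left-out tumors, and none made a difference between mutant, 60% or 80% tumors and WT in either share pass the threshold. Small differences turned sign with medians: 0.257 points of T and NK cells and -0.233 points of all cells for mutant against WT, and 1.62 points of T and NK cells for 60% against WT, where left-out tumors gave -2.49 to 1.43 points, the positive value without WT tumor 2. The difference in T and NK cells between 80% and 60% missed the threshold as a difference of medians (-3.77 points), and left-out tumors gave -6.50 to -3.38. Without CD8 T cells in the denominator it turned to 1.41 points, and that between mt.12436 60% and mt.11944 60% turned to -0.141 points. With the same denominator the differences from WT kept their sign, at -1.87 points for mutant, -2.34 for 60% and -0.932 for 80% tumors. In share of all cells, edgeR with TMM scaling called NK cells lower at 80% than at 60% (log2 fold -1.18, adjusted p = 0.0468), while with total cells as the offset the adjusted p was 0.0525 (log2 fold -1.74). NK cells in S or G2M, mutant against WT, differed by -2.64 points when a score above 0.2 was required, and by -0.0939 to 4.27 points with left-out tumors. Cluster 17 as a percentage of T and NK cells gave -3.26 points for mutant against WT.

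The NK to B cell ratio at 60% missed the threshold within batches (log2 difference 0.986) and over cells with at least 1000 genes (0.542), as did the NK to neutrophil ratio (1.66 and 0.929, adjusted p = 0.514 by exact permutation at that floor), for which left-out tumors gave 1.57 to 2.06; the cause was not tested. With tumors 1 to 3 of each group alone and the replicate number as a block (replicate block), the log2 differences were 0.706 for B cells and 1.63 for neutrophils, neither past the threshold, with fewer tumors and splits, and the difference in T and NK cells between 80% and 60% was -5.39 points with an adjusted p of 0.0741 by exact permutation. Of 18 pairs of tumors with the same number, 8 had a correlation above 0.1, with values from -0.644 to 0.805, and 5 of 12 tumors were nearest to their own number. With so few tumors, and most same-numbered tumors in different batches, these values cannot settle whether the numbers pair the tumors. The block changed no other call. It moved differences from WT in share of T and NK cells to -8.08 points for mutant, -6.28 for 60% and -11.7 for 80% tumors. The WT tumors kept were 1 to 3, all of batch 1, so the 80% tumors had no WT tumor of their own batch. Among those kept was WT tumor 2, with 53.9% NK cells. Without WT tumor 2 and without the block, the same differences were -0.37, 1.43 and -3.96 points. The part of the choice of WT tumors in the larger differences was not tested.

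Tumors of few NK cells limit what can be seen: with 66 NK cells in WT tumor 1 the exact interval of the share of T and NK cells was 27.1% to 40.8%, and with 3 tumors a group at 80% an exact p cannot go below 0.00833 against WT.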
